A study of Mus musculus with 18 samples.

Results

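Cyclin-dependent kinase inhibitors are small proteins that bind the kinases of the cell cycle and hold them inactive. The Ink4 family (Cdkn2a, Cdkn2b, Cdkn2c and Cdkn2d) binds Cdk4 and Cdk6 and keeps them from the D cyclins. The Cip/Kip family (Cdkn1a, Cdkn1b and Cdkn1c) binds complexes of cyclin and kinase, above all those of Cdk2. Red cell precursors stop dividing at the end of their maturation, and inhibitors of both families are known to take part in that exit from the cycle. The 7 genes were read by 9 of the 12422 probe sets tested, chosen as every probe set to which the platform table gave exactly 1 of these symbols. A probe set is a group of short DNA probes that reads 1 transcript. Cdkn1a and Cdkn1b had 2 probe sets each and the other 5 genes had 1 each.

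The 18 arrays came from G1E-ER4 cells, an erythroid line grown from mouse embryonic stem cells in which Gata-1, the transcription factor needed for red cell maturation, had been disrupted by targeting. The ER4 subclone carries Gata-1-ER, a fusion of Gata-1 to the estradiol-binding domain of a receptor, and estradiol in the medium switches it on. The groups were untreated cells (0 h) and cells treated with estradiol for 3, 7, 14, 21 or 30 h, and each time had 3 replicates (A, B and C) that the labels call biological. All groups share the Gata-1 disruption and the fusion, all come from 1 subclone, and estradiol-treated cells without the fusion were not analysed here. The labels do not say how the replicates were made, such as whether they were separate cultures, so p values measure the spread between these arrays. RNA was from whole cultures, in which fewer cells of a type and less RNA per cell cannot be told apart.

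The deposited arrays share 1 scale, with 2% trimmed means between 150.094 and 150.124, and log2 values correlated between 0.954 and 0.974 among arrays of 1 time. Signals of the 3′ over the 5′ control probe sets lay between 0.914 and 1.27 for Gapdh and between 0.968 and 2.04 for actin. The 10 measured erythroid markers summed to signals between 12796 and 15470 at 0 h and between 58775 and 70468 at 30 h. The largest signal in that sum was Hba-a1, with means of 6061 and 26550. Rhag went from 2003 to 1116 and Epor from 584.5 to 573.9, while each other erythroid marker had a higher mean at 30 h. Gata1 is among these markers, and whether its signal came from the disrupted gene or from the fusion was not tested. The 11 neutrophil and macrophage markers summed to 384 to 444 at 0 h and 575 to 716.5 at 30 h, with Camp at 48.7 and 155 and Lyz2 at or below 8.6 on every array. The 5 megakaryocyte markers summed to 98.8 to 109.2 at 0 h, 155 to 231 at 14 h and 100.4 to 102 at 30 h. The 6 fibroblast markers summed to 553 to 650.5 at 0 h and 677.5 to 936 at 30 h. The largest signal in that sum was Col1a2, with means of 430.3 and 629.5. Col1a1 and Col3a1 also had higher means at 30 h, and Fn1 (34.0 to 12.1), Thy1 (19 to 9.1) and Sparc (5.43 to 2.93) lower ones. The summed ranges of the 8 mast cell and 7 lymphocyte markers overlapped between those times. Among the mast cell markers Cma1 went from 9.73 to 64.2, while each other one had a lower mean at 30 h, such as Mcpt1 (53.3 to 12.6). The part of these markers in the results was not tested.

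In short, Cdkn2c and, on 1 of its 2 probe sets, Cdkn1b rose from 14 h on or earlier. Cdkn1a rose at 30 h, and Cdkn2d was called higher at 21 h alone. Cdkn1c, Cdkn2a and Cdkn2b showed no change that passed the test. A call means a Benjamini-Hochberg adjusted p below 0.05 in limma over all 12422 probe sets. Against 0 h, 0 of the 9 probe sets were called at 3 h, when 1.06% of all probe sets were called. The count was 3 at an unadjusted p below 0.05, a level at which the share of all probe sets was not counted. No other tool was run. At 7 h 1 of 9 was called (4.17% of all), at 14 h 2 (13.3%), at 21 h 3 (20.7%) and at 30 h 4 (26.7%). Each of these calls was a rise, and all these comparisons share the 3 arrays of 0 h. Among all probe sets the calls of a rise made up 2.48%, 6.55%, 9.75% and 12.8% at 7, 14, 21 and 30 h. The 4 rises at 30 h stood for 3 of the 7 genes. The median log2 change of the 9 at 30 h was 0.52, beside 0.05 over all probe sets. In the F test over all 6 times 5 of 9 were called, beside 27.2% of all.

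**Figure D1:**
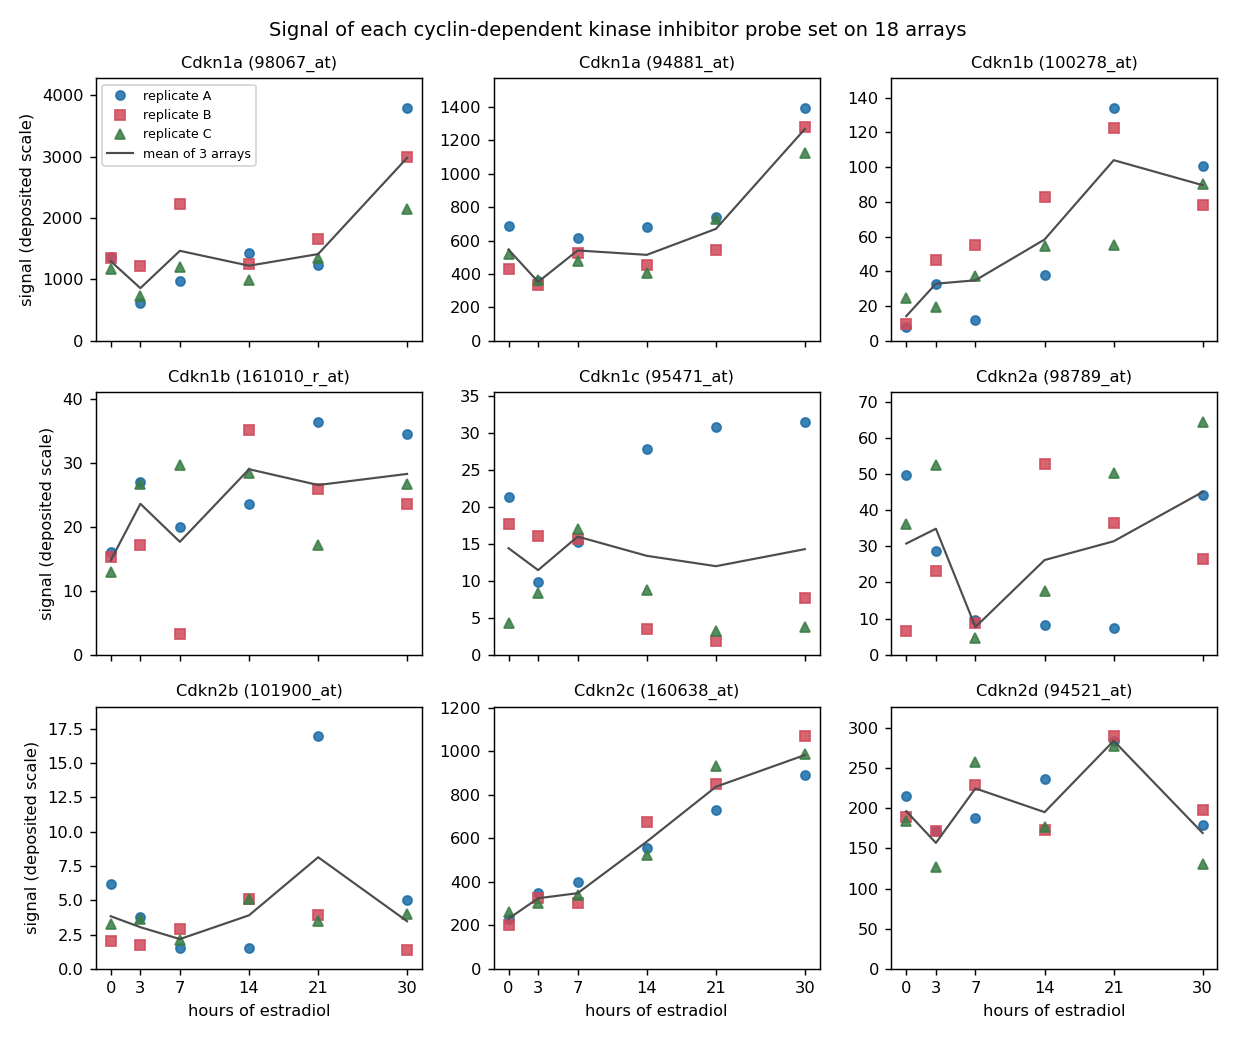
Signal on the deposited linear scale (vertical axis, from 0, with its own range in each panel) against hours of estradiol for each of the 9 probe sets. Symbols are the arrays of replicates A, B and C and the line is the mean of 3 arrays. Cdkn2c climbs from 230.2 to 982, and both Cdkn1a probe sets step up between 21 and 30 h.

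The promoters shown are those of the 3 genes called higher at 30 h, with Cdkn1a given at both of its listed starts and Cdkn2c at the outer of its 2. The sequences are the 250 bases upstream of a transcription start, from RefSeq (GRCm38.p6), 5′ to 3′ on the strand of the gene, and the capitals mark matches to the motifs named after them. They lie at chr4:109666757-109667006 (Cdkn2c, minus strand), chr6:134920151-134920400 (Cdkn1b, plus strand), chr17:29090729-29090978 (Cdkn1a, upstream start, plus strand) and chr17:29093519-29093768 (Cdkn1a, downstream start, plus strand).
Cdkn2c: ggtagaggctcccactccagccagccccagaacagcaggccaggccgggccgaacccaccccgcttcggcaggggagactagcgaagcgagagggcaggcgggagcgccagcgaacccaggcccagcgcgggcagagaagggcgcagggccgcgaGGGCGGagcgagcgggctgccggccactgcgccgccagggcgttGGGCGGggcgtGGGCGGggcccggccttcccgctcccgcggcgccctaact
Cdkn1b: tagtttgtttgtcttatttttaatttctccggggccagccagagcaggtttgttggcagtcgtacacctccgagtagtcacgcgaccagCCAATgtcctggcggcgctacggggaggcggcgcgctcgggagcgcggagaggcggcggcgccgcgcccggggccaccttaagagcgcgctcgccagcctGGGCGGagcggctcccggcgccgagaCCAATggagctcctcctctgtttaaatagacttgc
Cdkn1a, upstream start: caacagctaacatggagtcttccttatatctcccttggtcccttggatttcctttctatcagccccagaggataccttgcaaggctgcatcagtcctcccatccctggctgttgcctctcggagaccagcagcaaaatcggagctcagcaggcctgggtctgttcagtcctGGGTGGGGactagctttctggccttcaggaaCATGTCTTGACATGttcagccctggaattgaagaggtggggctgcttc
Cdkn1a, downstream start: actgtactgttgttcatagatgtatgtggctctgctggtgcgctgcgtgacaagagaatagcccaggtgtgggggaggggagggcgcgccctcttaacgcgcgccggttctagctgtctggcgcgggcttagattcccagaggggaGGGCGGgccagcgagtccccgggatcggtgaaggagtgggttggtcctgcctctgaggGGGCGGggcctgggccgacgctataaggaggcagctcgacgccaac
Searched on both strands were AGATAA or TGATAA, the core that Gata factors bind, CCNCACCC, which Klf1-type factors bind, GGGCGG, the GC box of Sp1, CCAAT, and 2 CATG motifs with 6 bases between them, the spacing of the cores of a p53 site. Of 32851 promoters in the table, 16.6% held a Gata core, 14.9% CCNCACCC, 32.7% a GC box, 33.8% CCAAT and 0.49% the paired CATG. The Cdkn2c stretch held 3 GC boxes between 35 and 90 bases upstream of the start. That of Cdkn1b held 1 GC box and 2 CCAAT motifs. The Cdkn1a stretch at the upstream start held the paired CATG, 35 bases before the start, and 1 CCNCACCC match, and that at the downstream start held 2 GC boxes. None of the 9 listed promoters of 6 of the genes held a Gata core in this window. A GC box stood in 5 of the 9, CCNCACCC in 2, CCAAT in 2 and the paired CATG in 1. Genes not called at 30 h had matches too. Cdkn2d held 3 GC boxes and 1 CCAAT motif, Cdkn2a 2 GC boxes at its first listed start, and Cdkn2b 1 CCNCACCC match. The Cdkn2c start that is not shown held none of these motifs. A match is a run of letters and not a measured binding site.

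Cdkn2c (Ink4c, which holds Cdk4 and Cdk6) had a higher mean at each time than at the one before. Its signals on arrays A, B and C were 229.7, 201 and 259.7 (0 h), 347, 324 and 302 (3 h), and 400.4, 301.5 and 340 (7 h). They were 555, 677 and 521 (14 h), 727.5, 849 and 933 (21 h), and 888, 1071 and 987 (30 h). At each later time the lowest array lay above the highest array of 0 h. The mean was 230.2 ± 29.2 (SD, n = 3) at 0 h and 982 ± 91.4 at 30 h, 4.27 times as high. On the log2 scale after a constant of 16 had been added, which understates changes of dim signals, the rise at 30 h was 2.03 (SE 0.14, adjusted p = 1.01e-09). At 21 h it was 1.80 (adjusted p = 1.05e-08), at 14 h 1.34 (adjusted p = 1.2e-06) and at 7 h 0.58 (adjusted p = 0.0180). At 3 h the change was 0.45 (95% interval 0.17 to 0.74, adjusted p = 0.167) and was not called.

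Between neighbouring times, Cdkn2c was called from 7 h to 14 h (0.76, SE 0.14, adjusted p = 0.00378), the only member called there, where 2.33% of all probe sets were. From 14 h to 21 h its arrays did not overlap, with a difference of 0.46 (adjusted p = 0.0920). In that comparison 0 of the 9 probe sets were called, beside 2.32% of all. At an unadjusted p below 0.05 there were 2, and the share of all probe sets at that level was not counted. From 21 h to 30 h they did overlap, and the difference was 0.22 (95% interval −0.06 to 0.51). Thus 14 h and 21 h, and 21 h and 30 h, were not told apart by the test, nor were 3 h and 7 h (0.12, adjusted p = 0.867). The calls at 14, 21 and 30 h against 0 h held in all 26 alternatives, which were other scalings, constants, filters and designs and each of the 18 arrays left out. The call at 7 h did not hold without array 0 h A (adjusted p = 0.0530), 0 h B (0.102) or 7 h A (0.0933), with median scaling (0.125) and with the 2 times fitted alone (0.119), over a range from 0.0159 to 0.125. The step from 7 h to 14 h was lost when those times were fitted alone (0.0933).

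Cdkn2d (Ink4d), the other Ink4 member called, had a different course. Its signals were 215, 189.7 and 184.5 (0 h), 171, 172 and 127 (3 h), and 188.5, 229 and 257 (7 h). They were 236, 173 and 177 (14 h), 284, 290.5 and 278 (21 h), and 179, 198 and 131 (30 h). The arrays of 3 h lay below those of 0 h, though the difference of −0.30 was not called (adjusted p = 0.771). The 3 arrays of 21 h were the highest 3 of the 18, and the arrays of 30 h overlapped those of 0 h. The rise at 21 h against 0 h was 0.59 (SE 0.18, adjusted p = 0.0236), from 196 ± 16.2 to 284 ± 6.21 (SD, n = 3). From 21 h to 30 h Cdkn2d fell to 169 ± 34.7 (−0.71, SE 0.18, adjusted p = 0.0245). Its probe set was 1 of 3 of the 9 called in that comparison, beside 4.98% of all probe sets, and the 1 called lower, beside 3.12%. The 3 probe sets stood for 2 genes, Cdkn2d and Cdkn1a. At 30 h against 0 h the change was −0.13 (95% interval −0.50 to 0.25, adjusted p = 0.687).

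The Cdkn2d calls were near the threshold. The rise at 21 h did not hold without array 0 h B (adjusted p = 0.0682), 0 h C (0.0797), 21 h A (0.0580), 21 h B (0.0592) or 21 h C (0.0551), without quantile normalization (0.0502) and with median scaling (0.0576), over a range from 0.0135 to 0.0797. The fall to 30 h was lost without 21 h A (0.0562), 21 h B (0.0730), 21 h C (0.0665) or 30 h C (0.133) and with the 2 times fitted alone (0.0879), over a range from 0.0176 to 0.133.

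Cdkn2a and Cdkn2b, which lie side by side on 1 chromosome and are best known as brakes switched on in ageing or stressed cells, were dim. Cdkn2a signals lay between 4.7 and 64.5 over the 18 arrays. At 7 h its arrays were 9.6, 8.7 and 4.7, below the 3 arrays of 3 h at 28.7, 23.3 and 52.6, yet overlapping those of 0 h at 49.6, 6.6 and 36.1. The difference from 3 h was −1.12 (95% interval −2.09 to −0.15, adjusted p = 0.419). In that comparison 0 of the 9 probe sets were called, beside 1.06% of all. At an unadjusted p below 0.05 there were 4 of the 9, and the share of all probe sets at that level was not counted. At 30 h against 0 h the Cdkn2a change was 0.48 (95% interval −0.49 to 1.45, adjusted p = 0.522). The Cdkn2a gene makes transcripts for Ink4a and for Arf, and which of them the probe set reads was not tested. Cdkn2b lay between 1.4 and 17 on every array, with a mean at percentile 4.03 of all probe sets, and its change at 30 h was −0.06 (95% interval −0.38 to 0.26, adjusted p = 0.851). Its value of 17 on array 21 h A stood apart from 3.9 and 3.5 on the other arrays of that time.

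**Figure D2:**
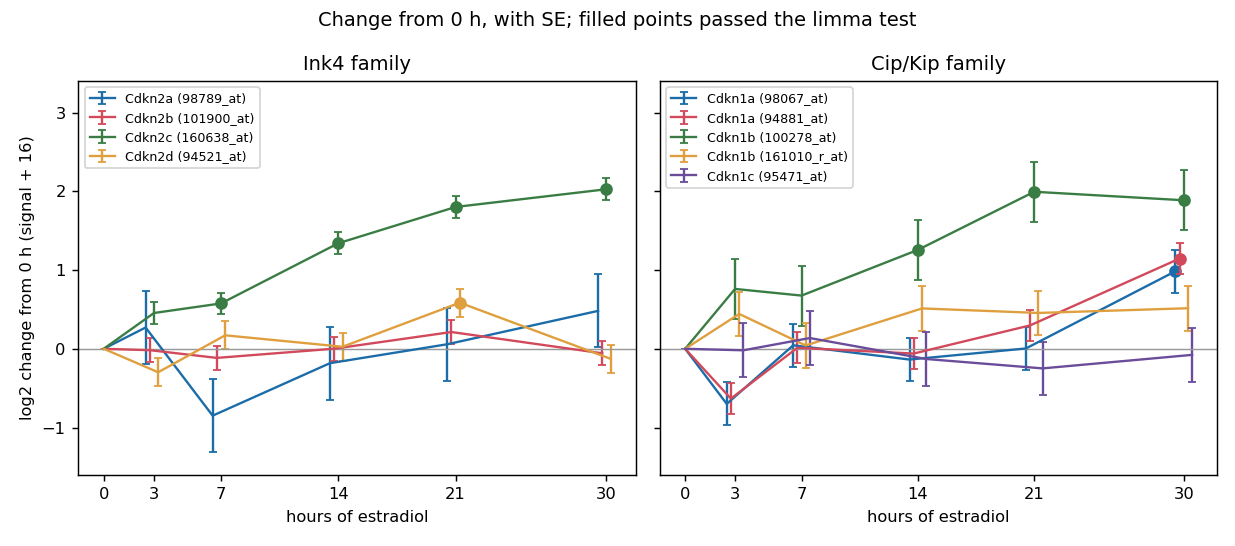
Log2 change from 0 h, after 16 was added to each signal (vertical axis), against hours of estradiol for the Ink4 family (left) and the Cip/Kip family (right). Bars are standard errors of the limma model, lines join the times, points are shifted slightly sideways to keep bars apart, and filled points were called. Cdkn2c is filled from 7 h and Cdkn1b (100278_at alone) from 14 h, and both Cdkn1a probe sets are filled at 30 h alone.

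Among the Cip/Kip genes, Cdkn1b (Kip1, an inhibitor tied to the resting state of many cells) rose from a dim signal. On the brighter of its probe sets, 100278_at, arrays A, B and C read 7.8, 9.9 and 24.8 (0 h), 32.5, 46.4 and 19.6 (3 h), and 12.1, 54.9 and 37.4 (7 h). They read 37.8, 82.8 and 54.3 (14 h), 134, 123 and 54.9 (21 h), and 100.4, 78.4 and 90 (30 h). From 14 h on, every array lay above the 3 arrays of 0 h, while those of 3 h and 7 h overlapped them. The mean was 14.2 ± 9.27 (SD, n = 3) at 0 h, 104 ± 42.9 at 21 h and 89.6 ± 11 at 30 h. The log2 change was 1.26 at 14 h (SE 0.38, adjusted p = 0.0326), 1.99 at 21 h (adjusted p = 0.000580) and 1.89 at 30 h (adjusted p = 0.000688).

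No step of Cdkn1b between neighbouring times was called, and from 21 h to 30 h the difference was −0.11 (95% interval −0.90 to 0.69). The calls at 21 h and 30 h held in all 26 alternatives. The size depended on the constant: with 1 added in place of 16 the 21 h change was 2.91, and with 64 added it was 1.10. The call at 14 h did not hold without array 0 h A (adjusted p = 0.134), 0 h B (0.102), 14 h B (0.145) or 14 h C (0.0821), with a constant of 64 (0.0605) and with the 2 times fitted alone (0.0592), over a range from 0.0173 to 0.145. The other probe set, 161010_r_at, bears a suffix for probes that break a design rule and lay between 3.3 and 36.4. It read 16, 15.3 and 12.9 (0 h) and 34.5, 23.5 and 26.7 (30 h). Those arrays did not overlap, but the change of 0.52 was not called (95% interval −0.08 to 1.11, adjusted p = 0.214). In all, 5 of the 9 probe sets had every array of 30 h above every array of 0 h, as had 18.9% of all probe sets.

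Cdkn1a (Cip1, the classic target of p53) rose late on both of its probe sets. On 98067_at the signals were 1364, 1355 and 1170.5 (0 h), 623, 1213 and 735 (3 h), and 968.5, 2233 and 1195 (7 h). They were 1428, 1255 and 985 (14 h), 1242, 1654.5 and 1341.5 (21 h), and 3801, 2997 and 2145 (30 h). On 94881_at they were 686, 429 and 521 (0 h), 357, 336 and 364 (3 h), and 615, 528 and 479 (7 h). They went on to 682.5, 456 and 404 (14 h), 741, 543 and 726 (21 h), and 1396, 1281 and 1127 (30 h). On both, all arrays of 30 h lay above those of 0 h and of 21 h.

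The means at 0 h and 30 h were 1297 ± 109 and 2981 ± 828 (SD, n = 3) on 98067_at and 545.6 ± 130.2 and 1268 ± 135 on 94881_at, ratios of 2.30 and 2.32. The log2 changes were 0.99 (SE 0.27, adjusted p = 0.0102) and 1.15 (SE 0.20, adjusted p = 0.000150). At 7, 14 and 21 h the changes from 0 h ran from −0.14 to 0.30 over both probe sets and were not called. From 21 h to 30 h the steps were 0.98 (adjusted p = 0.0444) and 0.85 (adjusted p = 0.0154). These were the 2 of 9 probe sets called higher in that comparison, both of Cdkn1a, beside 1.87% of all probe sets. The probe set 94881_at kept its 30 h call in all 26 alternatives. That of 98067_at did not hold without array 30 h A (0.81, adjusted p = 0.0607, range 0.00267 to 0.0607), and its step from 21 h was lost in 10 of the 18 analyses that left out 1 array (adjusted p up to 0.188), with median scaling (0.0535) and without the intensity trend (0.0857). The step on 94881_at was lost without 21 h B (0.0922) or 30 h A (0.0708), range 0.00240 to 0.0922.

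Cdkn1a also stood low at 3 h. On 94881_at all 3 arrays of 3 h lay below those of 0 h and of 7 h, and on 98067_at they overlapped both. The difference from 0 h was −0.63 (95% interval −1.05 to −0.22, adjusted p = 0.206) and −0.70 (95% interval −1.28 to −0.12, adjusted p = 0.435), and neither was called. The return from 3 h to 7 h was 0.65 (adjusted p = 0.174) on 94881_at and 0.74 (adjusted p = 0.331) on 98067_at.

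Cdkn1c (Kip2, an imprinted gene) was dim, between 1.9 and 31.5 on the 18 arrays, and its log2 change at 30 h was −0.08 (95% interval −0.79 to 0.64, adjusted p = 0.916). Its highest values were the A arrays of the last 3 times, at 27.8, 30.8 and 31.5. Arrays B and C of those times read 3.5 and 8.8 (14 h), 1.9 and 3.2 (21 h), 7.6 and 3.7 (30 h). At every later time its arrays overlapped those of 0 h.

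The genes whose log2 values over the 18 arrays were most like those of each called member were taken from 2641 genes called in the F test, by Pearson correlation. Each member was read by its brightest probe set alone. They share the arrays, so no p value is given. For Cdkn2c they were the heme synthesis enzyme Alas2 (r = 0.986), the lysosomal protease Ctsb (0.982), the proton pump subunit Atp6ap1 (0.978), the zinc and iron carrier Slc39a8 (0.976) and Sec11c, a signal peptidase subunit (0.972). Their ranges of change differed widely, from 1.96 for Sec11c to 6.69 for Alas2 at 30 h, beside 2.03 for Cdkn2c. For Cdkn1b they were the Golgi syntaxin Stx5a (0.902), Flot2 (0.901), Tor1aip2 (0.898), the calcium sensor Stim1 (0.895) and Antkmt (0.890). For Cdkn1a, read by 98067_at, they were H2-Bl, an MHC class I gene (0.912), Spns1 (0.808), Dlgap4 (0.792) and Bsdc1 (0.791). After them came Mxd4, a partner of Max that opposes Myc (0.783). The H2-Bl probe set bears a suffix for probes that may read other transcripts. For Cdkn2d the likeness was lower, with Rnf141 (0.727), Fntb (0.707), Zc3hc1 (0.695), Lgalsl (0.686) and Unc119b (0.682). Among the members themselves, Cdkn2c and Cdkn1b (100278_at) had r = 0.821, the pair of Cdkn1a probe sets 0.79, Cdkn2c and Cdkn2d 0.276, and the pair of Cdkn1b probe sets 0.457.

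**Figure D3:**
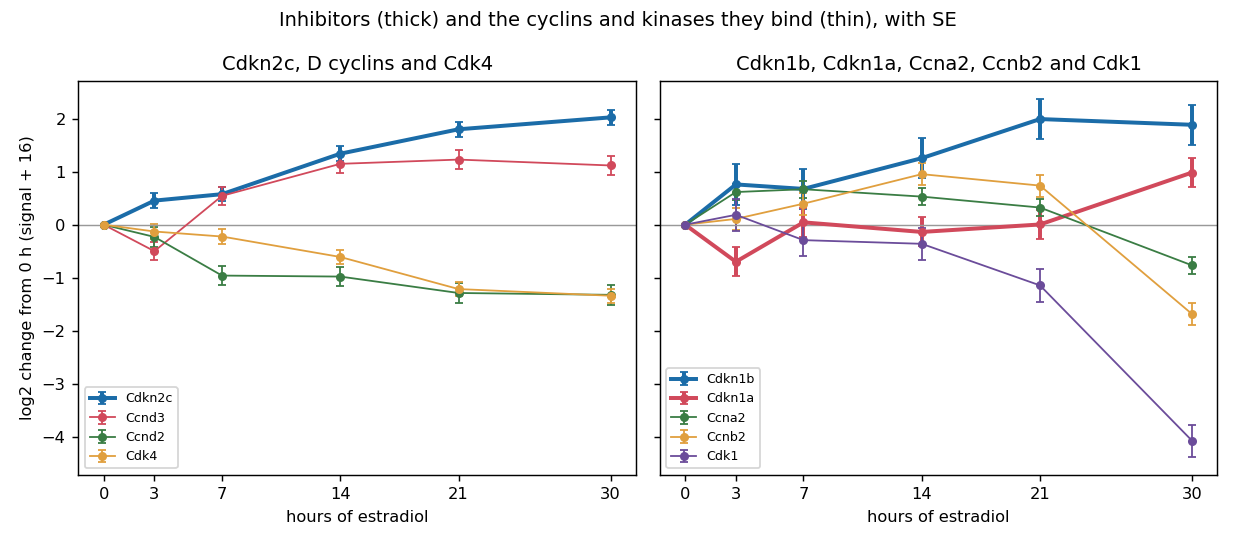
Log2 change from 0 h, after 16 was added to each signal (vertical axis), against hours of estradiol, with standard errors. The left panel shows Cdkn2c (thick line) with Ccnd3, Ccnd2 and Cdk4, and the right panel Cdkn1b and Cdkn1a (thick lines) with Ccna2, Ccnb2 and Cdk1, each from the brightest probe set. Cdk4 and Ccnd2 end at −1.34 and −1.32, Ccnd3 at 1.12 and Cdk1 at −4.08.

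The kinases and cyclins that the inhibitors hold were read alongside, each gene by its brightest probe set. Of 4 measured genes for the D cyclins and Cdk4, 1 was called higher and 2 lower at 14, 21 and 30 h. Of all probe sets 13.3%, 20.7% and 26.7% were called at those times, and 6.55%, 9.75% and 12.8% were called higher. Cdk4 fell from 2030 to 862 at 30 h (−1.34, adjusted p = 1.84e-07) and Ccnd2 from 710 to 263 (−1.32, adjusted p = 1.34e-05). Ccnd3 rose from 925 to 2284 (1.12, adjusted p = 4.75e-05), and Ccnd1 was not called (0.58). Cdk4 was first called at 14 h (−0.61) and Ccnd2 at 7 h (−0.96), and Cdkn2c was first called at 7 h. Of 11 genes for the cyclins and kinases held by Cip/Kip proteins and for their activators, 4 were higher and 0 lower at 14 h, and 0 higher and 5 lower at 30 h, when the median was −0.43. The activators among them were Cdc25c at 14 h and Cdc25a and Mnat1 at 30 h. Ccna2 and Ccnb2, cyclins of S phase and mitosis, were higher at 14 h (0.53 and 0.95) and lower at 30 h (−0.77 and −1.69). Cdk1 was not called at 14 h (−0.36) and stood at −4.08 at 30 h, and Cdc25a, the phosphatase that activates the kinases, at −1.31.

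Among 7 pocket proteins and E2f factors, which the kinases act on, 1 was higher and 3 lower at 30 h. Of all probe sets 13.3%, 20.7% and 26.7% were called in either direction at 14, 21 and 30 h. Rb1 rose (0.78, adjusted p = 0.00592), while its relative Rbl1 (−1.88), the E2f partner Tfdp1 (−2.96) and E2f1 (−0.81) fell. Of 15 S phase genes under E2f control, 13 were lower at 30 h, with a median of −2.66, and 11 at 21 h. Cdc6, Cdt1, Mcm4 and Mcm7, which load or license the replication origins, stood at −1.27, −3.73, −3.76 and −2.61 at 30 h. At 14 h 1 of the 15 was called, Cdc6, and it was higher (1.76). Cdc6 was called higher at 3, 7 and 21 h as well (0.82, 1.44 and 1.03). Cdt1, Mcm4 and Mcm7 were first called at 21 h.

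Genes known from other work to act on the inhibitors or on their genes moved both ways, and their part in these cells was not tested. Of 11 genes of inhibitor turnover, 2 were higher and 5 lower at 30 h. Beside each count of this paragraph stand 26.7% of all probe sets called at 30 h and 12.8% called higher. Cks1b, the cofactor with which Skp2 marks Cdkn1b protein for destruction, fell from 1180 to 388 (−1.58, adjusted p = 9.45e-08), and its relative Cks2 by 0.43. Akt1, a kinase that acts on the Cip/Kip proteins, fell by 1.41, and Cul4a, a ubiquitin ligase scaffold, rose by 0.59 at 30 h and by 1.45 at 14 h. Of 29 transcriptional regulators of the inhibitor genes, 7 were higher and 7 lower at 30 h. The 4 with the smallest p over time were Gata2 (−3.96), Myc, a repressor of several inhibitor genes (250.3 to 9.7, −3.36), Klf1 (0.90) and Klf6 (1.92). Chosen after their values were seen were Foxo3, an activator of Cdkn1b (1.16 at 30 h and 0.89 at 14 h), and the p53 ligase Mdm2 (0.90 at 30 h). So was Bmi1, a repressor of Cdkn2a (−0.95). Others called at 30 h but not picked included Gata1 (1.29), Max (0.96), Egr1 (−1.30) and Eed (−1.07). Whether the Gata1 signal came from the disrupted gene or from the fusion was not tested. Of the 31 regulators listed 29 were measured, and Trp53, the gene of p53, was not among them. Of 10 other brakes on the kinases, 4 were higher and 3 lower at 30 h. Btg2 rose from 292 to 3214 (3.35) and Gadd45a from 227 to 1141 (2.23), whereas Cdk2ap1 (−1.72) and the checkpoint kinase Chek1 (−2.08) fell.

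**Figure D4:**
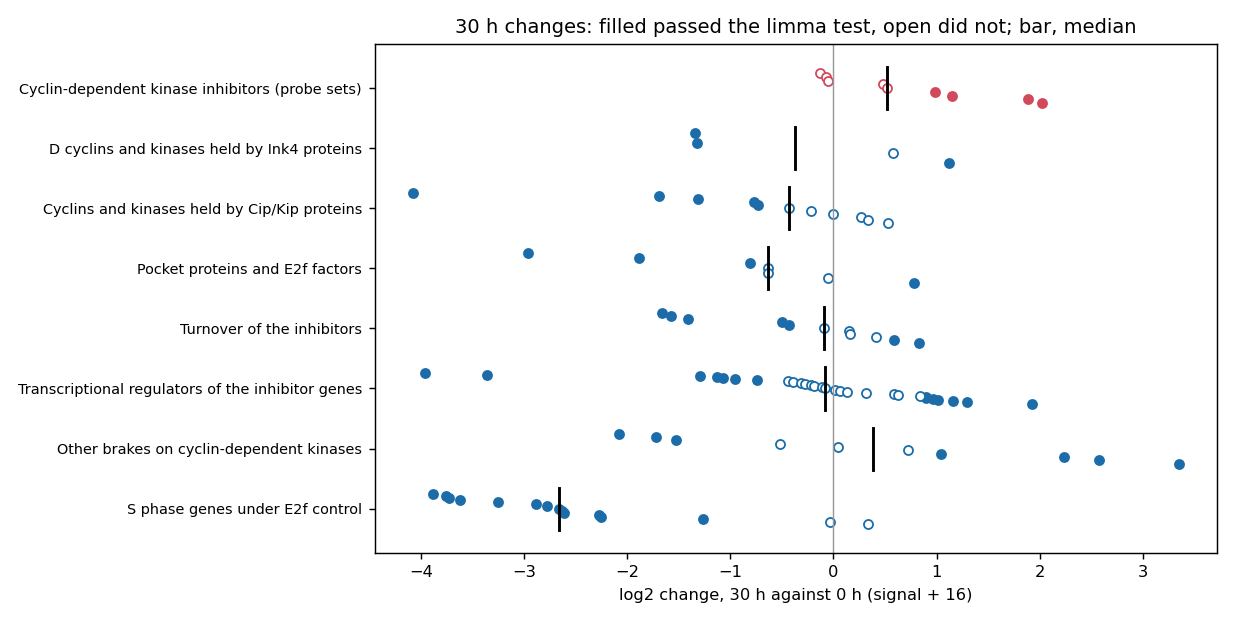
Log2 change from 0 h to 30 h, after 16 was added to each signal (horizontal axis), for the 9 inhibitor probe sets (red) and for the genes of each list (blue, brightest probe set of a gene). Filled points were called in limma, open points were not, the bar is the median, and the vertical spread only separates points. The medians are 0.52 for the inhibitors and −2.66 for the S phase genes.

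In those lists, 29 genes had a further probe set, and 2 of the 12 further probe sets that were called at 30 h went against the brightest one, for Mnat1 (0.99 against −0.73) and Mcm5 (1.28 against −2.77), where both were called. For the S phase gene Ung the further one was called lower (−1.06) while the brightest, at 0.34, was not called. The brightest probe set of Tfdp1 bears the suffix for probes that break a design rule. That of E2f1 bears a suffix for probes that may read other transcripts. Further ones were called in the same direction for Tfdp1 (−2.33 and −1.53) and E2f1 (−0.92). The brightest probe sets of Ung, Cdc25c, Mcm3 and Stat5a bear suffixes as well.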

How the data were processed

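Signals of 18 Affymetrix MG-U74Av2 arrays (6 times, n = 3) were used. The authors deposited 1 linear signal intensity for each of 12488 probe sets and array. The summary algorithm and detection calls are not given in the sources used here, so depth is unknown and 3 arrays a group limit precision. The 66 control probe sets were left out. With R 4.3.3 and limma 3.58.1, log2(signal + 16) was quantile normalized and fitted with 1 mean for each time and an intensity trend (12 residual degrees of freedom). Each later time was set against 0 h and each time from 7 h against the one before. Adjusted p values are Benjamini-Hochberg values over 12422 probe sets, called below 0.05. An exact permutation of 3 against 3 arrays cannot go below p = 0.1, so calls rest on variance shared across probe sets. The script was tested on simulated data.

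The members and gene lists were chosen with earlier results of these data known. Named by rule were all members, from each list the 4 genes of smallest F test p, and the 5 genes most correlated with each called member. Gene names are those of the platform table, and all 9 member probe sets were found by gene number in the RefSeq table. Motifs were searched with Python 3.11.15. Of 45 correlations of same-letter deviations between times, 3 were over 0.1, so the letters A, B and C were not taken as pairs.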

Additional observations from a re-analysis of the deposited data

How the results depend on the processing

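The 26 alternatives covered scaling, the added constant, a filter on dim probe sets, the intensity trend, a replicate block, a fit of the compared times alone and each array left out. At 7 h against 0 h the count of 1 called inhibitor probe set became 0 with median scaling and with the compared times alone. At 14 h against 0 h the count of 2 became 1 with a constant of 64 and with the compared times alone. From 7 h to 14 h the count of 1 became 0 with the compared times alone. At 21 h against 0 h the count of 3 became 2 without normalization and with median scaling. From 21 h to 30 h the count of 3 became 2 with median scaling, without the trend and with the compared times alone. With arrays left out in turn, the counts ran from 0 to 1 at 7 h, from 1 to 2 at 14 h, from 2 to 3 at 21 h, and from 0 to 3 from 21 h to 30 h, where the count of 3 became 0 without 21 h B and 1 without 21 h A, 21 h C or 30 h A. With the replicate block, the count from 3 h to 7 h was 1 in place of 0, through Cdkn1a 94881_at (adjusted p = 0.0492), and 13 of 18 arrays correlated best with their own letter, a hint from the data and not from the design. At 30 h against 0 h the count was 4, from 3 to 4 with arrays left out, and the F test count was 5 in every alternative. Of the 19 member changes recomputed, no called one changed sign. The uncalled changes at 30 h against 0 h of Cdkn1c (−0.42 to 0.19), Cdkn2b (−0.25 to 0.01) and Cdkn2d (−0.25 to 0.05) lay on both sides of 0. The filter left out Cdkn1c and Cdkn2b, which have no value there. Low signals, without detection calls, limit Cdkn1c, Cdkn2a, Cdkn2b and the 0 h level of Cdkn1b.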
